A study of Mus musculus with 6 samples.

Results

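Peripheral myelin in skeletal muscle was followed here through 8 genes, Pmp22, Mbp, Mal, Mag, Prx, Gjb1, Egr2 and Sox10, which were measured by 11 probes among the 55681 probes of a single-colour mouse array. Gastrocnemius muscle was taken from male C57BL/6J mice, 3 young animals aged 13 weeks and 3 aged animals aged 26 months, and total RNA from each mouse was hybridized to 1 array. No allele or treatment was named for either group, so that age was the only labelled difference. The 8 genes were chosen from their known roles in myelin with the difference between aged and young mice on these same arrays already known. Their differences and counts are therefore descriptions, and nothing about aging is supported by them.

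Myelin in a muscle nerve is made by Schwann cells, which wrap a motor or sensory axon in many layers of membrane. In compact myelin these layers are held together by small membrane and cytoplasmic proteins, whereas the innermost membrane facing the axon, the outermost membrane facing the basal lamina, and the paranodes and incisures remain uncompacted and carry their own proteins. The transcription factors Sox10 and Egr2 (also called Krox20) are required for Schwann cells to start and keep this program, and mutations in several of these genes cause inherited demyelinating neuropathies. Of the genes followed here, Pmp22, Mbp and Mal encode proteins of compact myelin. Mag lies mainly at the periaxonal membrane, Prx at the abaxonal membrane and Gjb1 in uncompacted regions, so that these 3 are myelin proteins outside compact myelin.

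Values are log2 processed signals relative to the 75th percentile of the same array, which is at 0, and the aged minus young difference is on the same log2 scale. Levels of different probes are not compared with each other. Between 49.2% and 50.7% of probes in young mice and between 48.7% and 53.8% in aged mice were well above background, and no spot was saturated. All 6 arrays were on 1 slide, with the 3 young mice and aged mouse 1 in row 1 and aged mice 2 and 3 in row 2. Negative control spots had a mean net signal of 61.3 for aged mouse 1, compared with 51.9 to 55.1 for the remaining mice. As a check of the tissue, the fibre genes Acta1 (between 9.14 and 10.07) and Ckm (between 9.41 and 10.05) were far above the 75th percentile on every array. All 11 myelin probes were kept by the filter (well above background on at least 3 arrays), and 10 of them were well above background on all 6 arrays.

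The proximal promoters of members whose levels moved in the same direction are shown first, because Egr2 and Sox10, both members, are DNA-binding factors that act on myelin genes. RefSeq promoters (250 bases before to 50 after a transcript start, build GRCm38.p6) were searched for 6 of the 8 genes. They covered 18 transcript starts, and no promoter of Mbp or Sox10 was searched. The letters searched on both strands were the Egr motif GCGTGGGCG, its shorter form GTGGGNG, which lies within the longer motif, and the Sox motifs ACAAAG and ACAATG. Prx is shown as the gene past the test threshold, Mag as a promoter with both kinds of motif, and Gjb1 as the promoter with the most matches; each is written on the strand of the gene, and capitals mark every match, on either strand.
Prx, chr7:27499074-27499373, plus strand: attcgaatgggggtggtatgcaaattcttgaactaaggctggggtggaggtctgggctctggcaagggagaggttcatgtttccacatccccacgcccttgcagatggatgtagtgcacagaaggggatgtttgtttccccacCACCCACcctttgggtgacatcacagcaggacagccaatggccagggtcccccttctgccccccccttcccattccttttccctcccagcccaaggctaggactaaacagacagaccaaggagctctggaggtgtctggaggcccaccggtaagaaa
Mag, chr7:30914814-30915113, minus strand: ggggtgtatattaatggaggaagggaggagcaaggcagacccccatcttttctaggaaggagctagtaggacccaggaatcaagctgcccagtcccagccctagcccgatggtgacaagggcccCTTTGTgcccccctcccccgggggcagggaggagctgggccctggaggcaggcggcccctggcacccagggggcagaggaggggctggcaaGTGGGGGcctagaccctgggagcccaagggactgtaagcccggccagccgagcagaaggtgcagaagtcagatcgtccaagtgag
Gjb1, chrX:101383482-101383781, plus strand: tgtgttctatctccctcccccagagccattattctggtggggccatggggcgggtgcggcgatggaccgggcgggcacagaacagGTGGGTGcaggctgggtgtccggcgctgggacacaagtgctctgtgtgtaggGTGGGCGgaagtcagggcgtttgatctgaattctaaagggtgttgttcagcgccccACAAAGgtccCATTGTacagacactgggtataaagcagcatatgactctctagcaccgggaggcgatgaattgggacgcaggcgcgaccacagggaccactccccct
The long Egr motif was found in 0 of the 18 member promoters, and in 0.612% of all 32851 promoters. The short form GTGGGNG was found in 6 of the 18, from Prx, Mag, Egr2 and Gjb1, and in 31.6% of all promoters. ACAAAG was found in 4 member promoters, from Mag and Gjb1, and in 18.7% of all promoters. ACAATG was found in 1 member promoter, of Gjb1, and in 12.6% of all promoters. Another Mag start overlaps the one shown and holds the same matches. None of these letters was found in the 4 promoters of Pmp22 or the 1 promoter of Mal. A match is a description of the letters and does not show that a factor binds there.

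Compared with young mice, 7 of the 8 genes had a lower mean in aged mice and 1, Mbp, a higher one, where 56.8% of all genes had a lower mean. All 3 aged mice lay below all 3 young mice for 6 of the 8 genes (Pmp22, Mal, Mag, Prx, Gjb1 and Sox10), a pattern shown by 13.9% of the 20901 genes tested. All 3 aged mice lay above all 3 young mice for Mbp, a pattern shown by 7.92% of genes, and the groups overlapped for Egr2. In limma, with p-values adjusted across the whole array by Benjamini-Hochberg, 1 of the 8, Prx, was past an adjusted p of 0.05, as were 0.254% of all genes. The median difference of the 8 genes was -0.78, beside -0.06 for all genes. In whole muscle, fewer Schwann cells, less RNA per Schwann cell and a change in RNA from other cells cannot be told apart.

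**Figure D1:**
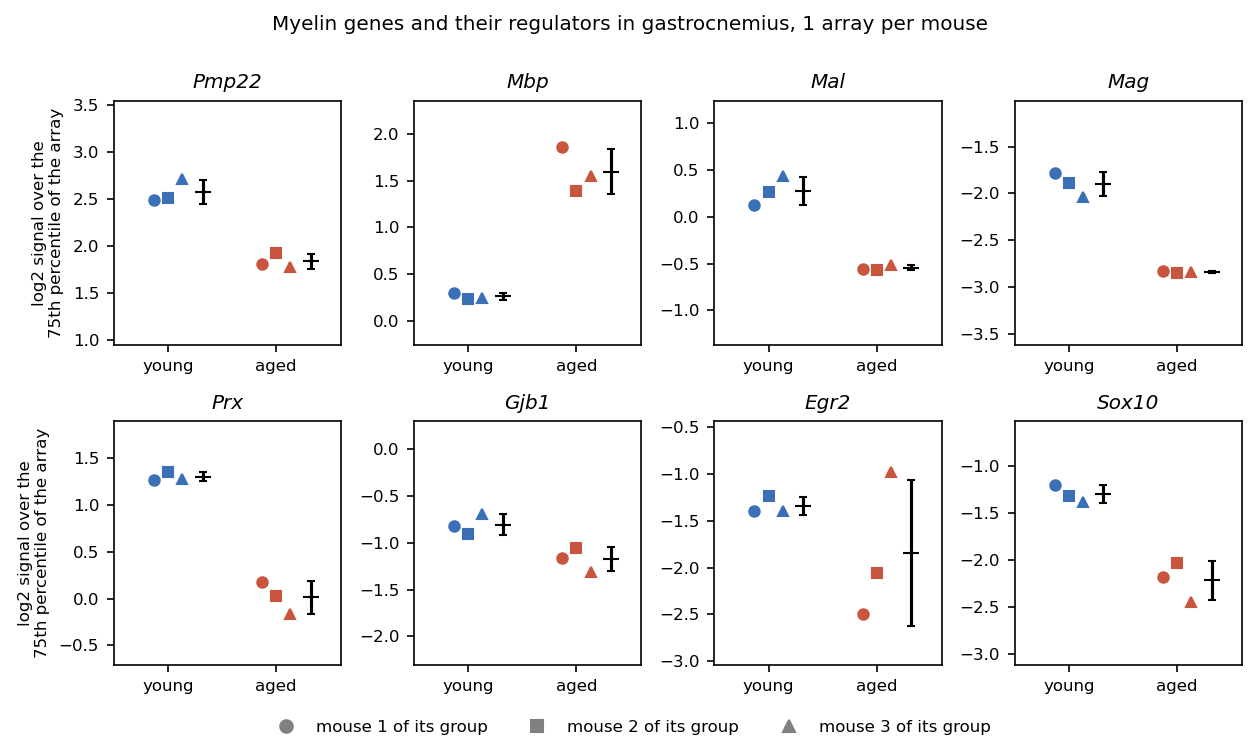
Log2 signal over the 75th percentile of the array for the 8 genes, 1 point per mouse (3 young in blue, 3 aged in red, symbols give the mouse number), with the group mean and SD (n = 3) as black bars; each panel has its own vertical range of the same height. Aged mice lie below young mice in 6 panels, above them for Mbp, and on both sides of them for Egr2.

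Among the proteins of compact myelin, Pmp22 encodes a tetraspan membrane protein whose gene dosage determines a common inherited neuropathy. Its brighter probe read 2.49, 2.51 and 2.72 in young mice and 1.81, 1.93 and 1.78 in aged mice. The groups were separate, with a gap of 0.56 between the lowest young and the highest aged mouse. The difference was -0.73 (SE 0.15), or 0.601-fold. The dimmer Pmp22 probe, assigned to the same transcript accession, read 0.42, 0.40 and 0.21 in young mice and -0.00047, 0.22 and 0.18 in aged mice. Here the groups overlapped, because aged mouse 2 was above young mouse 3, and the difference was -0.21 (SE 0.16). Both probes were thus lower on average in aged mice, but by different amounts, and their mean differed by -0.47. Pmp22 is also expressed by fibroblasts and other cells outside nerve. In 5 of the 6 fibroblast markers the mean was lower in aged mice, with a median of -0.47 (-0.13 without aged mouse 1), and the mean level of the 6 ranged from 3.32 to 3.65 in young mice and from 2.66 to 3.41 in aged mice. Col1a1, the chain of type I collagen, differed by -1.56 and the proteoglycan Dcn by -0.85, neither past the threshold. The part of fibroblasts in the Pmp22 difference was not tested.

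Mal encodes a small lipid-associated membrane protein of myelin and of polarized epithelia. Its single probe read 0.13, 0.26 and 0.43 in young mice and -0.55, -0.57 and -0.51 in aged mice. The aged values lay within a narrow band below all young values. The difference was -0.82 (SE 0.16), or 0.567-fold.

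Mbp encodes myelin basic protein, which joins the cytoplasmic faces of the membrane, and the same locus gives rise to Golli transcripts that are also made in immune cells and neurons. The brightest of 3 probes, assigned to NM_001025245, read 0.30, 0.24 and 0.25 in young mice and 1.86, 1.39 and 1.54 in aged mice. Young mice were nearly equal and every aged mouse was higher. The difference was 1.33 (SE 0.18), or 2.52-fold, the opposite direction to the other 7 genes.

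The other 2 Mbp probes were assigned to NM_010777 and were much closer to background. One of them, A_52_P329451, read -2.38, -2.58 and -2.43 in young mice and -1.97, -2.67 and -2.83 in aged mice, with a difference of -0.03 (SE 0.25). Its groups overlapped, with aged mouse 1 the highest of the 6 and the other aged mice the lowest. The other, A_55_P1992160, read -3.06, -2.91 and -3.70 in young mice and -1.21, -2.24 and -2.85 in aged mice, with a difference of 1.12 (SE 0.43). All aged mice were above all young mice on that probe, by a gap of 0.056, and it was well above background in 2 of the 3 young mice. The 3 probes of Mbp therefore did not give 1 answer, their mean differed by 0.81, and which myelin or Golli transcripts each probe binds was not analysed here.

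Markers of immune cells are given beside Mbp because of its Golli transcripts. Of 7 macrophage markers, 6 were tested and 5 had all aged mice above all young mice (7.92% of all genes), with a median difference of 0.55 (0.35 with normexp). The mean level of the 6 ranged from 0.86 to 1.02 in young mice and from 1.35 to 1.62 in aged mice. Cd68, a lysosomal protein of macrophages, differed by 1.08 and C1qb, a complement subunit, by 0.89, while Cd163 was not well above background on any array. Of 8 lymphocyte markers, 4 were tested, all overlapped between groups, and their median was -0.31 (between -0.55 without young mouse 2 and -0.05 without aged mouse 3), with mean levels from -1.90 to -1.29 in young mice and from -2.15 to -1.70 in aged mice. The T cell adhesion molecule Cd2 differed by -0.45. The T cell receptor subunit Cd3g and the B cell marker Ms4a1 were not well above background on any array. None of these markers was past the threshold, and their part in the Mbp result was not tested.

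**Figure D2:**
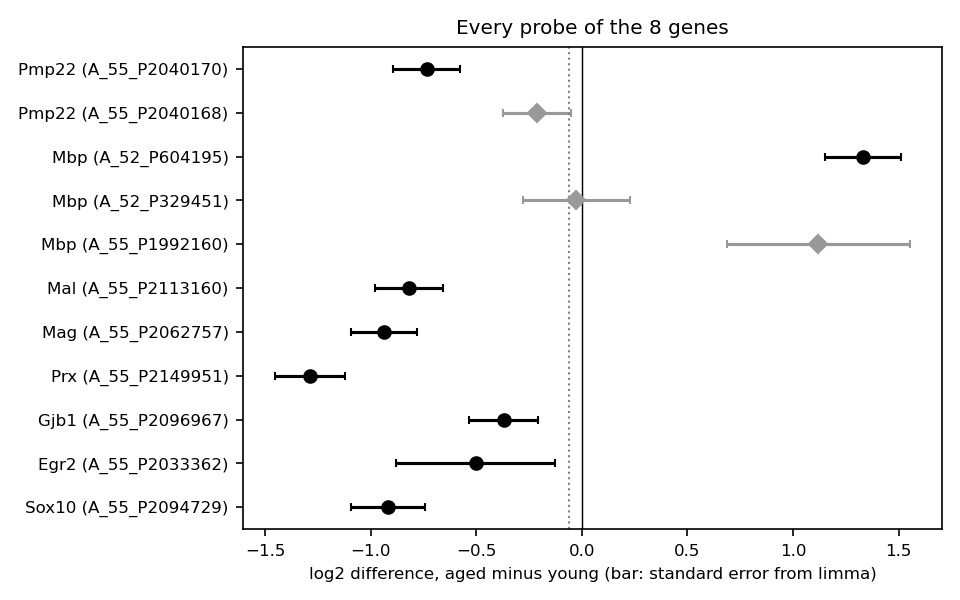
Aged minus young log2 difference for each of the 11 probes of the 8 genes, with the standard error from a limma fit across all probes as the bar (3 mice per group); black circles are the probe that represents the gene, grey diamonds its other probes, the solid line is 0 and the dotted line the median of all genes. Probes of Pmp22 differ in size, and 1 of the 3 Mbp probes is near 0.

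Of the proteins outside compact myelin, Prx encodes periaxin, which links the outer Schwann cell membrane to the basal lamina through Drp2 and dystroglycan. It read 1.27, 1.35 and 1.28 in young mice and 0.18, 0.03 and -0.17 in aged mice. Young mice were within a narrow band, and the highest aged mouse was 1.09 below the lowest young mouse. The difference was -1.29 (SE 0.16), or 0.410-fold, with an adjusted p of 0.043 in limma. That call rested on the mice included. Without aged mouse 1 Prx was past the threshold and without any 1 of the other 5 mice it was not, with adjusted p between 0.024 and 0.203 over 17 alternatives and differences between -1.44 and -1.11.

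Mag encodes myelin-associated glycoprotein, an adhesion molecule that faces the axon. It read -1.78, -1.89 and -2.04 in young mice and -2.83, -2.85 and -2.84 in aged mice. The 3 aged mice were almost identical (SD 0.0075) and below all young mice. The difference was -0.94 (SE 0.15), or 0.522-fold, and it was -0.52 after normexp background correction.

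Gjb1 encodes connexin 32, a gap junction protein that gives a short path through the uncompacted layers and that is also abundant in liver. It read -0.82, -0.91 and -0.69 in young mice and -1.16, -1.06 and -1.31 in aged mice. The groups were separated by 0.15, less than the range within either group. The difference was -0.37 (SE 0.16), or 0.774-fold, the smallest among the probes representing the 8 genes.

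Among the regulators, Sox10 is a transcription factor of the neural crest lineage that is kept in Schwann cells throughout life, myelinating or not. It read -1.19, -1.32 and -1.38 in young mice and -2.18, -2.03 and -2.44 in aged mice. All aged mice were below all young mice. The difference was -0.92 (SE 0.17), or 0.529-fold, and it was -0.44 after normexp background correction.

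Egr2 is a zinc finger factor of the myelinating Schwann cell, and it is also an immediate early gene that many cells induce within a short time of stimulation. It read -1.39, -1.24 and -1.40 in young mice and -2.49, -2.06 and -0.99 in aged mice. Aged mice 1 and 2 were below all young mice and aged mouse 3 was above them, so that the SD was 0.78 in aged mice and 0.093 in young mice. The difference was -0.50 (SE 0.37), and it depended on single aged mice, at -0.18 without aged mouse 1, -0.40 without aged mouse 2 and -0.93 without aged mouse 3. It was -0.17 after normexp background correction and -1.15 with slide row as a block. Row 2 held aged mice alone, so that a slide row block, here and below, leaves aged mouse 1 against the 3 young mice.

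Other immediate early genes are set beside Egr2 for this reason. Egr1, another Egr factor, read 0.38, 0.30 and 0.59 in young mice and 0.38, 1.07 and 4.0 in aged mice. Atf3, a stress-induced factor, read 0.38, -0.71 and -1.16 in young mice and 1.56, 1.57 and 4.27 in aged mice. Aged mouse 3 was the highest of the 6 mice for both, as it was for Egr2. The mean of 6 of the 7 immediate early genes tested was higher in aged mice, with a median of 1.03 (0.30 without aged mouse 3 and 0.41 with slide row as a block) and 0 past the threshold, and the mean level of the 7 ranged from -0.23 to 0.12 in young mice and from 0.28 to 1.6 in aged mice. Junb, a subunit of AP-1, differed by 1.48, with all aged mice above all young mice. Nr4a1, an orphan nuclear receptor, went the other way, with a difference of -1.23 and all aged mice below all young mice. The part of an immediate early response in the Egr2 level of aged mouse 3 was not tested.

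**Figure D3:**
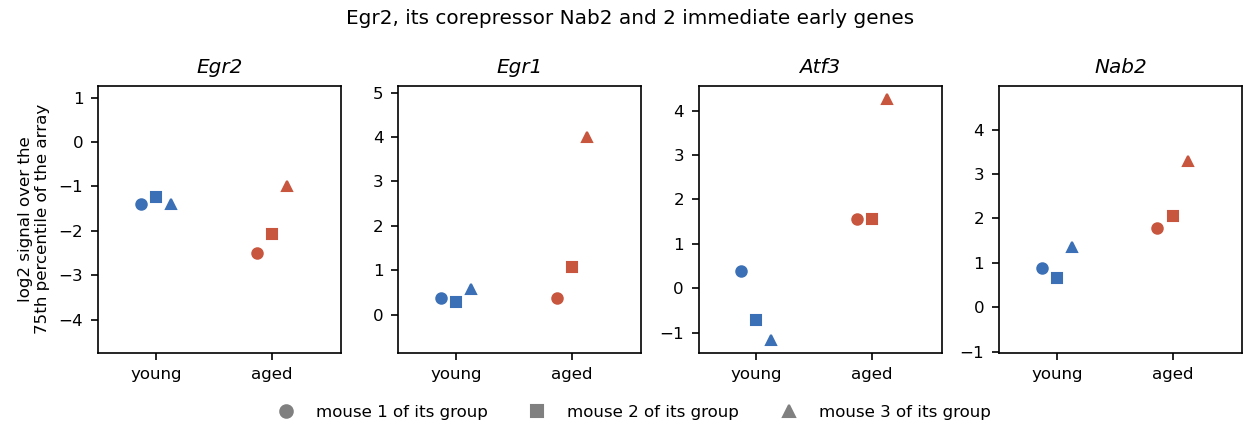
Log2 signal over the 75th percentile of the array for Egr2, the immediate early genes Egr1 and Atf3, and Nab2, which encodes a corepressor of Egr factors, 1 point per mouse (3 young in blue, 3 aged in red); panels have their own vertical range of the same height. Aged mouse 3 (triangle) is the highest of the 6 mice in all 4 panels.

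Taken mouse by mouse, the 7 genes other than Mbp were at medians of -0.88, -0.73 and -0.80 relative to the young mean in aged mice 1, 2 and 3. All 7 were below the young mean in aged mice 1 and 2, and 6 were in aged mouse 3, with Egr2 as the exception. Aged mouse 1, whose negative controls were the brightest, had the lowest of these medians, and it was also the highest of the 6 mice on all 3 probes of Mbp. The part of background in these values was not tested.

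The pattern of Prx over the 6 mice was compared with that of 12683 genes that had a symbol and a probe well above background on every array, as the root mean square distance between mean-centred log2 values. The closest genes were Klhdc3 (0.099), Gpcpd1 (0.109), Prss12 (0.129), Bhlhe41 (0.139) and Col22a1 (0.152). Gpcpd1 encodes a glycerophosphocholine phosphodiesterase, Bhlhe41 a transcriptional repressor of the clock, and Col22a1 a collagen of tissue junctions such as that between muscle and tendon. Sox10 ranked 28 (0.216), Mag 29 (0.216), Mal 96 (0.276) and Pmp22 160 (0.306). Gjb1 ranked 1324, Egr2 6587 and Mbp 12343. The ranks describe likeness over 6 arrays in 2 age groups, so that a difference of like size between the ages enters them.

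Beyond the 8 genes, 7 lists of genes around peripheral myelin held 64 genes, of which 51 were tested. None was past the threshold in limma, beside 13 at an unadjusted p under 0.05, as were 14.4% of all genes. The mean was lower in aged mice for 33 and higher for 18, beside 56.8% of all genes lower, with a median of -0.20. All aged mice were below all young mice for 16 of the 51 and above them for 3, beside 13.9% and 7.92% of all genes.

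The other sheath proteins were the list closest to the 8 genes. Of 12 listed genes 10 were tested, and 9 of them were lower on average in aged mice, with a median of -0.55. All aged mice were below all young mice for 7 of the 10, beside 13.9% of all genes. Ncmap, which encodes a small membrane protein of Schwann cell myelin, read 0.01, 0.17 and -0.10 in young mice and -0.57, -0.66 and -1.04 in aged mice. The groups did not overlap, and the difference was -0.79 (SE 0.19). Nfasc, which encodes the neurofascins of the paranode and node, read -2.31, -1.76 and -2.07 in young mice and -2.87, -2.83 and -2.60 in aged mice, also without overlap, with a difference of -0.72 (SE 0.20). Drp2, the partner of periaxin, differed by -0.67 (SE 0.22), and its other probe by -0.19. Pmp2 and Cldn19 were too dim to be tested.

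Genes of myelin lipid synthesis gave values in both directions. Of the galactolipid enzymes 4 of 6 were tested and 3 were higher on average, with a median of 0.36 that was 0.03 with normexp, 0.14 with the mean of all probes, 0.08 without young mouse 3 and 0.19 without aged mouse 1. Cers2, a ceramide synthase for very long acyl chains, read 1.12, 1.05 and 1.01 in young mice and 1.32, 1.15 and 1.85 in aged mice, with all aged mice above. Gltp, a glycolipid transfer protein, differed by 0.34 (SE 0.32) with overlap, and its other probe by -0.54. Fa2h, which hydroxylates the fatty acids of myelin galactolipids, had all aged mice below all young mice, with a difference of -0.74 (SE 0.28), and was well above background in 2 of the 3 aged mice. Of 10 cholesterol synthesis enzymes 9 were tested and all 9 overlapped between groups, 6 of them lower and 3 higher on average, with a median of -0.20 (-0.02 without young mouse 1). Their differences ranged from -0.68 to 0.67, the highest for the sterol enzyme Lss (SE 0.45). These enzymes are made by many cells of the muscle besides Schwann cells.

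Of 8 factors that work with Egr2 and Sox10, 7 were tested, with a median of -0.24 (-0.12 without young mouse 3, -0.14 without aged mouse 2 and -0.04 with slide row as a block). Nab2, a corepressor of Egr factors that Egr factors also induce, read 0.88, 0.67 and 1.37 in young mice and 1.77, 2.04 and 3.29 in aged mice. All aged mice were above all young mice, aged mouse 3 was the highest, and the difference was 1.40 (SE 0.42). Tead1, a Hippo pathway factor, differed by -0.51 (SE 0.16) and Nfatc4, a calcium-dependent factor, by -0.50 (SE 0.15), each with all aged mice below all young mice.

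Of 10 antagonists of myelination and genes of the repair Schwann cell, 5 were tested, with a median of 0.47 (0.26 without young mouse 2, 0.30 without aged mouse 3). Gdnf, a neurotrophic factor that repair Schwann cells and muscle both make, read -0.98, -1.32 and -0.90 in young mice and 0.20, 0.39 and 0.13 in aged mice. All aged mice were above all young mice, with a difference of 1.31 (SE 0.18, adjusted p = 0.060 in limma). Jun, a central factor of the repair state that muscle also expresses, overlapped between groups with a difference of -0.12. Sox2, Egr3, Olig1, Shh and Runx2 were too dim to be tested. Of 8 genes for signals between axon and Schwann cell, 6 were tested and 5 overlapped between groups, with a median of 0.02. Lgi4, a ligand secreted by Schwann cells, had all aged mice below all young mice (-0.50, SE 0.18), and the protease Bace1 differed by 0.91 (SE 0.63) with overlap. Nrg1 and its receptor subunit Erbb3 were not well above background on any array.

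All 10 further genes of inherited demyelinating neuropathy were tested, with 8 lower on average and a median of -0.35 (-0.17 without aged mouse 1). All aged mice were below all young mice for 5 of the 10, beside 13.9% of all genes. Among these 5, the gap between the groups was only 0.001 for Sbf2 and 0.004 for Sbf1. Sh3tc2, a Schwann cell protein of endosome recycling, read -1.69, -1.29 and -1.58 in young mice and -2.0, -2.17 and -2.13 in aged mice, a difference of -0.58 (SE 0.17). Gdap1, a mitochondrial protein, differed by -0.62 (SE 0.59) with overlapping groups.

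**Figure D4:**
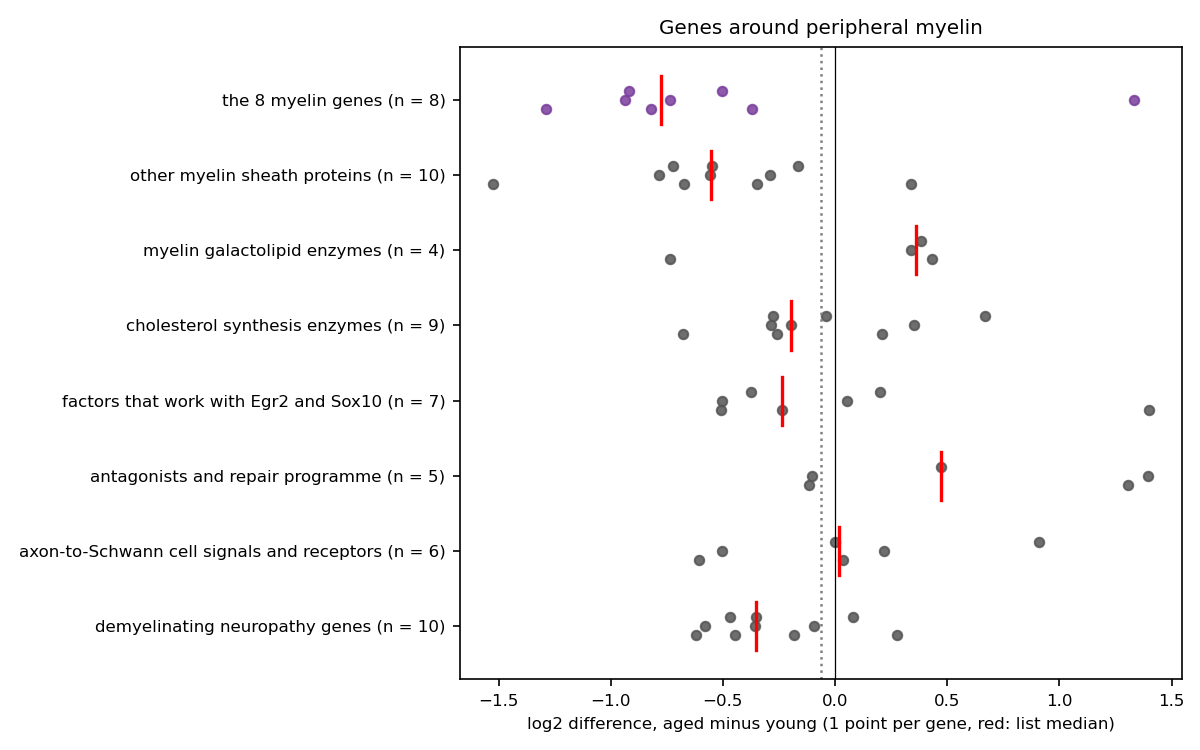
Aged minus young log2 difference of each tested gene (1 point per gene, 3 mice per group) for the 8 myelin genes and 7 lists of related genes, with the list median in red, 0 as the solid line and the median of all genes, -0.06, as the dotted line. The 8 genes (median -0.78) and the other sheath proteins (median -0.55) lie furthest to the left, and Mbp is the point at the right of the top row.

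Markers of the other cells of a muscle nerve are given beside the myelin genes. Of 8 markers of non-myelinating Schwann cells 6 were tested, with a median of 0.20 (between 0.02 and 0.35 over the alternatives) and mean levels from -1.73 to -1.47 in young mice and from -1.66 to -1.26 in aged mice. Ncam1, an adhesion molecule that denervated muscle fibres also express, differed by 0.98 (SE 0.30) with all aged mice above, though its 3 probes differed between -0.44 and 1.26, and S100b, which is made by all Schwann cells, by -0.60 (SE 0.19) with all aged mice below. Gfap was not well above background on any array. Of 8 oligodendrocyte markers, Mag and Mog alone were tested, and Mobp, Opalin, Olig2, Cldn11 and Sox8 were not well above background on any array. Mog overlapped between groups, with a difference of -0.12. Of 8 axon markers 3 were tested, with a median of 0.02 (between -0.19 and 0.23 over the alternatives) and mean levels from -2.87 to -2.16 in young mice and from -2.33 to -1.92 in aged mice, and the neurofilament genes Nefl and Nefm were not well above background on any array. Stmn2, a neuronal tubulin-binding protein, differed by 0.02 with overlap, and Prph, a neuronal intermediate filament, by -0.55 (SE 0.27) with overlap. Tubb3, a neuronal tubulin, was well above background in aged mice alone, so that it passed the filter on dim probes only through them. Its signal there was at least 2.41-fold higher, against the lowest signal well above background on each young array. Gap43, well above background in 2 young mice and 0 aged mice, was not tested. Of 6 perineurial markers 4 were tested and all overlapped, with a median of -0.19 (between -0.37 and 0.09 over the alternatives) and mean levels from -0.79 to -0.29 in young mice and from -0.82 to -0.30 in aged mice. Ntn4 and Lypd2 differed most, by -0.27 and -0.20. Of 5 markers of melanocytes, which share Sox10 with Schwann cells, 2 were tested, with mean levels from -3.21 to -2.97 in young mice and from -2.51 to -2.02 in aged mice. Dct, an enzyme of melanin synthesis, was higher on average by 1.64, and Tyr, the other tested marker, differed by -0.10. Only 1 of these 2 was well above background on all arrays, and Pmel and Tyrp1 were not on any array. The 5 endothelial markers had a median of 0.06, which lay between -0.24 and 0.35 without 1 mouse, with Cdh5 at -0.79 and Pecam1 at 0.52. The 6 muscle fibre markers had a median of -0.19 (between -0.45 and -0.04 over the alternatives), with the myosin genes Mylpf at 1.29 and Myh1 at -0.33. None of these markers was past the threshold in limma, and their part in the differences of the myelin genes was not tested.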

How the data were processed

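Total RNA from the gastrocnemius of 3 young and 3 aged male mice was labelled with Cy3 and hybridized to single-colour Agilent arrays. Feature Extraction files (version 9.5 per the labels, 11.0.1.1 per the file headers) were deposited by the authors, and the values used were processed signal intensities, background-subtracted and detrended within the array and not scaled between arrays. The array was designed on another genome build, so no probe coordinates are given. Flagged spots (161 to 212 per array) were left out, replicate spots were averaged on the log2 scale, and arrays were scaled by subtracting their 75th percentile. Accessions without their version were matched to RefSeq (GRCm38.p6), which gave a symbol to 28331 of 55681 probes. Probes well above background on at least 3 of 6 arrays were kept, and a gene was represented by its brightest kept probe, which left 20901 genes. The age groups were compared by lmFit and eBayes of limma (version 3.58.1, R version 4.3.3), and p-values were adjusted over all genes by the Benjamini-Hochberg method. Standard errors of representing probes come from that fit, and those of other probes and of the plot of all probes from a fit across probes. The fit was tested on simulated data. The number of arrays limits the precision. The members and lists were chosen with earlier results of these data known. Named genes are all members; from each list the 2 largest differences among genes well above background on all arrays, with the brightest or defining markers; and the 5 genes closest to Prx. Other genes (Drp2, Fa2h, Nfatc4, Jun, Nr4a1, Tubb3, Prph and those named as dim) were named after their values were seen, and some genes that the rule would name are not reported here. The alternatives were normexp background correction (offset 50), scaling by quantiles, by the median or by the 75th percentile of probes detected on every array, other filters on dim probes, the mean of all probes, the series matrix values (which equal the processed signals), a mean-variance trend, the slide row and the replicate number as blocks, and leaving out each mouse.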

Additional observations from a re-analysis of the deposited data

How the results depend on the processing

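No member changed direction in any of the 17 alternatives, but many of these could not turn a sign. The filters on dim probes, the series matrix values, the mean-variance trend and the replicate block left the difference of every member unchanged. Leaving out 1 mouse cannot turn the sign of a gene whose groups do not overlap. The count of 53 genes past the threshold was 8 without a filter on dim probes (36714 genes tested), 35 when every array had to be well above background, and from 1 (without aged mouse 3) to 199 (without aged mouse 1) when 1 mouse was left out, with 8 or 9 for the others. The count of 1 member was 2 (Mbp and Prx) with normexp and with a mean-variance trend. It was also 2 when every array had to be well above background. It was 0 with scaling to the median or to the 75th percentile of detected probes and without a filter. It ranged from 0 to 2 when 1 mouse was left out, with 2 (Mbp and Prx) without aged mouse 1 and 0 without any other. Prx stayed past the threshold in 7 alternatives and Mbp was past it in 4. The 7 include the series matrix values and the mean of all probes, which left the values of Prx, with its 1 probe, unchanged. The count of 0 among the related genes was 1 (Gdnf) with the 75th percentile of detected probes and with the mean-variance trend. The member median of -0.78 was -0.48 with normexp, -0.92 with median scaling and -0.66 with the mean of all probes. It was from -0.82 to -0.70 without 1 mouse. With slide row as a block, which leaves aged mouse 1 against the young mice, it was -0.85. The sheath protein median of -0.55 was -0.32 with normexp and -0.33 with slide row as a block. The median of the antagonists and repair list turned to -0.04 with slide row as a block, and that of the axon signal list ranged from -0.13 to 0.11 over the alternatives. Median scaling moved the median of all genes to -0.21. The causes were not tested.

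With the replicate number as a block, 5 genes and 0 members were past the threshold. Deviations of same-numbered mice correlated at -0.06, -0.27 and 0.03, and those of differently numbered mice at -0.21 to 0.35. The labels name no pairing, and so few values cannot settle whether the numbers paired the mice. One Mbp probe was not well above background in 1 young mouse, so that its value there lay near the limit of detection.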
